A study of Mus musculus with 4 samples.

Results

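Clec3b+ fibroblasts are described here in mouse heart grafts collected 5 days after heterotopic transplantation. They were 1630 of the 44626 cells that passed the filters of the study (over 200 genes and under 20% mitochondrial transcripts), or 3.65% (95% interval 3.48 to 3.83), out of 53824 cells deposited. The study also marked doublets and analysed a smaller set of cells, while the cells counted here include marked doublets. Cells were taken as members when they carried at least 10 unique molecular identifiers (UMIs, each 1 captured transcript) of *Dcn*, at least 1 of *Pdgfra* and at least 1 of *Clec3b*, and 0 of *Cthrc1*, *Prg4* and *Ptprc*. These 6 genes chose the cells, and members were thus selected on measured values, which are given only as a description of the choice.

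The grafts were 2 hearts of Balb/C mice and 2 hearts of C57BL/6J mice, each placed in the abdomen of a C57BL/6J recipient, called allogeneic and syngeneic. Donors and recipients were male mice of 8 to 10 weeks. Grafts were digested with collagenases and dispase, red cells were lysed, and 3′ libraries were made on a droplet platform, so cells that did not survive digestion are not represented. The 4 libraries were deposited as 1 matrix in which a barcode suffix of 1 to 4 marks the library. No label pairs a suffix with a graft, so the libraries are called 1 to 4, no allogeneic value is set against a syngeneic one, and no test was made. Total UMIs were 96020294, 115162601, 138892048 and 166079145 in libraries 1 to 4. Of all barcodes, 308 occurred in more than 1 library, 8 members carried such a barcode, and 0 barcodes were shared between members of different libraries.

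Cardiac fibroblasts are resident mesenchymal cells that build and turn over the collagen network of the heart. In an uninjured heart most are quiescent, marked by *Pdgfra* and *Tcf21*, and they hold secreted regulators of matrix and complement. After injury part of the population becomes activated, turning on periostin, fibronectin and fibrillar collagens, and *Cthrc1* marks such collagen-producing cells. *Clec3b* encodes tetranectin, a secreted plasminogen-binding protein, and *Dcn* encodes decorin, a small proteoglycan that binds collagen fibrils.

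The members were spread unevenly over the libraries. Library 1 held 1328 of them, 12.9% of its kept cells (12.2 to 13.5), and library 3 held 272, 2.76% (2.45 to 3.10). Library 2 held 22 (0.167%, 0.105 to 0.253) and library 4 held 8 (0.0708%, 0.0306 to 0.139). Nearly all members came from libraries 1 and 3, and values are given for these libraries separately. All intervals here are exact (Clopper-Pearson for shares, Poisson for levels) and cover counting error only, not the spread between grafts.

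**Figure D1:**
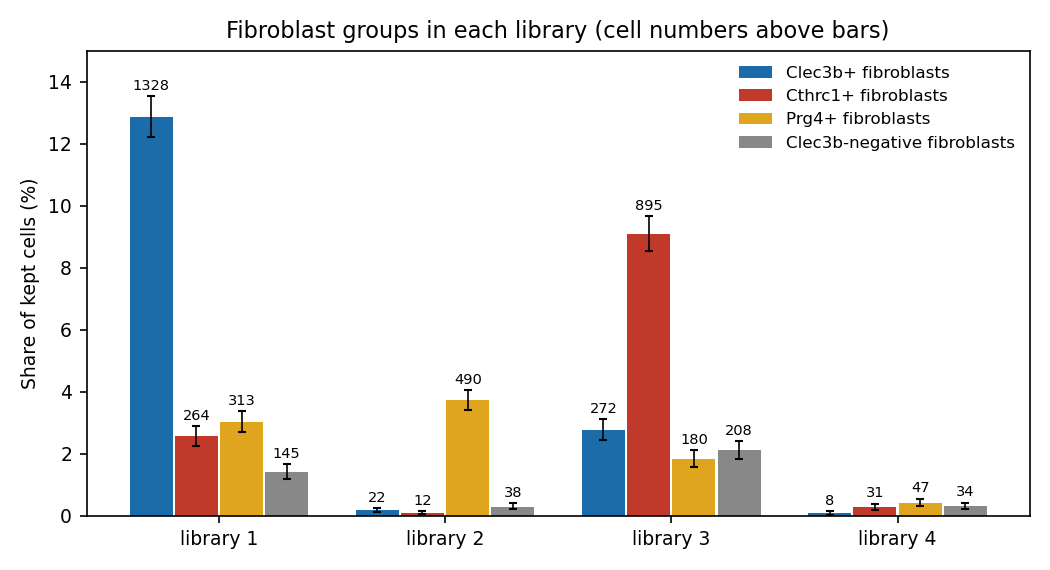
Share of kept cells (%, vertical axis) that met each fibroblast gate in the 4 libraries, with cell numbers above the bars and exact 95% binomial intervals as error bars. Clec3b+ fibroblasts were the largest of the 4 groups in library 1 (12.9%), Cthrc1+ fibroblasts in library 3 (9.09%) and Prg4+ fibroblasts in library 2 (3.73%).

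The condition on *Prg4* removed most fibroblasts of library 2. Of 730 *Dcn*- and *Pdgfra*-positive, *Ptprc*-negative cells of library 2, 72 had no *Prg4* UMI, against 1737 of 2147 in library 1 and 1375 of 1934 in library 3. In library 3 the *Cthrc1* condition took the next 895 cells, leaving 480. In library 4 the *Ptprc* condition left 163 of 368 *Dcn*- and *Pdgfra*-positive cells, against 2147 of 2274 in library 1. The *Prg4*, *Cthrc1* and *Clec3b* conditions then left 73, 42 and 8 cells of library 4. The median member had 253 *Dcn*, 5 *Pdgfra* and 7 *Clec3b* UMIs. At the lower edge, 13 members had 10 to 14 *Dcn* UMIs (3785 CPM of *Dcn*), and 8 cells just outside had 5 to 9 (1658 CPM). CPM is the number of a gene's UMIs per 1000000 non-mitochondrial UMIs of the same cells. Exactly 1 *Clec3b* UMI was found in 174 members (10.7%), and the 425 cells with 0 that met every other condition are called Clec3b-negative fibroblasts below.

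*Htra3*, a secreted serine protease that the rule did not use, was abundant in members of libraries 1 and 3, and other fibroblasts carried it too. Its level in members was 1564 CPM (1544 to 1583) in library 1, 1300 CPM (1263 to 1337) in library 3, 81.5 CPM (59.5 to 109) in library 2 and 19.4 CPM (7.13 to 42.3) in library 4. The members of libraries 1 and 3 were high and close to each other, while those of libraries 2 and 4 were far lower. An *Htra3* UMI was seen in 99.2% of members of library 1 (median depth 11989.5 UMIs) and in 11.04% of a random 607 of the *Cdh5*- and *Pecam1*-positive endothelial cells of the same library (median of the 607, 6827 UMIs). After cells deep enough were thinned to 2000 UMIs these shares were 88.4% and 3.04%, and 76.1% in fibroblasts of that library that carried *Cthrc1*. In library 1, 10 of 1328 members and 14 of the 607 endothelial cells were shallower than that. Within library 1, *Htra3* was at 1595 CPM in members with at least 2 *Clec3b* UMIs, 1145 CPM (1082 to 1210) in the 104 members with 1, and 953 CPM (902 to 1007) in Clec3b-negative fibroblasts. Within library 3 these levels were 1360, 1014 (937 to 1095) and 567 CPM (540 to 595). The order was the same in these 2 libraries and differed in the others, where few cells were counted. It was 116, 37.04 and 62.8 CPM in library 2 and 18.3, 19.7 and 26.9 CPM in library 4.

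General fibroblast genes were abundant in libraries 1 and 3. *Tcf21*, a transcription factor of cardiac fibroblasts, was at 281 and 236 CPM there, and at 7.51 CPM in endothelial cells of library 1. *Gsn*, which encodes the actin-severing protein gelsolin, reached 30041 and 15976 CPM, and *Mgp*, an inhibitor of calcification, 16939 and 18167 CPM. Genes that mark adventitial, progenitor-like fibroblasts were mixed. *Pi16* was at 515 and 770 CPM and *Ly6a* at 619 and 594 CPM, whereas *Dpp4* was at 5.15 and 4.90 CPM and *Cd248* at 46.4 and 72.1 CPM. Markers of other cells were low but present. The summed level of 10 endothelial genes was 1396 CPM in members, led by *Fabp4* at 843 CPM, against 31159 CPM in endothelial cells. All 10 had a UMI in libraries 1 to 3. In library 4, 7 of them were at 0. *Fabp4* was at 7044 CPM in the 91 members of cluster 6, described below, and at 254 CPM in the other members. Of those 91 cells 86.8% were marked as doublets. Other lists of 10 genes differed between the libraries. Cardiomyocyte genes summed to 550, 25.4, 185 and 51.8 CPM in libraries 1 to 4, led by *Myl2* or *Tnnt2*. In libraries 2 and 4 *Mb* and *Myh6* were at 0. *Myl2* was at 4314 CPM in cluster 8 (23 cells, 22 from library 1, described below) and at 52.0 CPM in the other members. Pericyte and smooth muscle genes summed to 282, 72.5, 763 and 175 CPM, led by *Rgs5* in library 1 and *Tagln* in library 3. Granulocyte genes summed to 484, 1199, 205 and 1239 CPM. They were led by *G0s2* in libraries 1 and 3 and by *Lcn2* in libraries 2 and 4. Macrophage genes summed to 139, 45.3, 216 and 379 CPM, against 24331 CPM in macrophages, and were led by *Lyz2* in libraries 1, 3 and 4. T, NK and B cell genes summed to 5.65, 0, 4.89 and 48.5 CPM. Schwann genes (6, led by *Cnp*) summed to 23.2 CPM. Mesothelial genes (9, led by *Wt1*) summed to 23.1, 34.3 and 58.3 CPM in libraries 1, 3 and 4 and were all at 0 in library 2. Globin and other erythroid genes are given with the comparison of the libraries.

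The members were compared with Cthrc1+ fibroblasts, which met the conditions on *Dcn*, *Pdgfra*, *Ptprc* and *Prg4* but carried *Cthrc1*, with or without *Clec3b* (1202 cells, with 264 in library 1 and 895 in library 3). The comparison shows how they stood apart from activated cells of the same libraries. Inside both libraries the members had more transcripts of gelsolin, *Gsta3* and *Gstm1*, a glucocorticoid-regenerating enzyme and the chemokines *Ccl7* and *Ccl11*, and fewer of fibronectin, periostin and type I collagen. Ratios are of CPM with 10 CPM added to each side. Over 6669 genes at 20 CPM or more in either group, 41 were at least 2-fold higher in members within library 1 and again within library 3 (0.615% of those tested), and 70 were at least 2-fold lower (1.05%). The looser rule, a pooled 2-fold difference with the same direction in both libraries, gave 183 higher (2.74%) and 179 lower (2.68%), but it mixes a member group mainly from library 1 with a Cthrc1+ group mainly from library 3. The higher count was 104 without library 1 and 99 without library 3. The median depth was 12414 UMIs in members and 22540 in Cthrc1+ fibroblasts. After cells were thinned to 2000 UMIs, a depth that 14 members and 1 Cthrc1+ cell did not reach, the looser rule counted 186 and 194 genes.

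*Gsn* (ENSMUSG00000026879, mm10 chromosome 2, 35256380 to 35307892) was highest by the median of the within-library ratios. Members had 30041 CPM in library 1 and 15976 CPM in library 3, against 7279 and 2016 CPM in Cthrc1+ fibroblasts, log2 differences of 2.04 and 2.98. Each library had its members above its Cthrc1+ cells, with no overlap of the counting intervals. *Gsta3* (chromosome 1, 21240589 to 21265661), a glutathione transferase, followed at 425 and 112 CPM against 64.9 and 12.4 CPM. *Gstm1*, of the same enzyme class, was at 779 and 385 CPM against 277 and 90.1 CPM.

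*Hsd11b1* (chromosome 1, 193221634 to 193264075) encodes the reductase that regenerates active glucocorticoid inside cells. It stood at 296 CPM (288 to 305) and 181 CPM (168 to 196) in members of libraries 1 and 3 and at 49.4 CPM (43.6 to 55.8) and 27.4 CPM (25.2 to 29.8) in Cthrc1+ fibroblasts. The log2 differences of 2.37 and 2.35 were nearly equal. Members of library 2 held 393 CPM and those of library 4 held 48.5 CPM. Of 15 glucocorticoid and stress genes, 14 were tested, and 2 were at least 2-fold higher within both libraries and 0 lower. These were *Cebpd*, a transcription factor (1987 and 1500 CPM against 899 and 581 CPM), and *Zbtb16* (129 and 27.5 CPM against 40.3 and 4.12 CPM). The list's median log2 difference was 0.45, and that of all genes tested was 0.02.

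*Scara5*, a ferritin receptor, was the 1 gene of 20 tested in the resting and adventitial list that was at least 2-fold higher within both libraries, with 188 and 106 CPM against 74.2 and 11.6 CPM. Other genes of that list differed between the libraries in size or direction. *Htra3* had log2 differences of 0.44 and 1.92, and *Pi16* was lower in members in library 1 (515 against 851 CPM) and higher in library 3 (770 against 491 CPM). The whole list had a median of 0.46.

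A few chemokine and cytokine genes stood higher in the members. Of 20 tested in the list of chemokines and cytokines, *Ccl7*, *Ccl11* and *Tslp* were at least 2-fold higher within both libraries and 0 were lower, with a list median of 0.37. *Ccl7*, which draws monocytes, was at 679 and 476 CPM against 259 and 106 CPM. *Ccl11*, which draws eosinophils, was at 152 and 48.1 CPM against 49.2 and 4.37 CPM. Endothelial cells of library 1 held 11.5 CPM of *Ccl7* and 1.81 CPM of *Ccl11*, while macrophages of that library held 310 CPM of *Ccl7*. Further genes among the 12 highest were *Inmt*, a methyltransferase (315 and 52.2 CPM against 77.1 and 6.28 CPM), *Enpp2*, the lysophospholipase autotaxin (205 and 93.8 CPM against 86.1 and 11.1 CPM), *Penk*, the enkephalin precursor (67.6 and 25.02 CPM against 11.6 and 2.21 CPM), *Apod* and *Ifi207*. *Apod* had log2 differences of 2.49 in library 1 and 0.98 in library 3. *Ifi207* has close paralogs beside it in the genome, and reads could be split between them. *G0s2*, a lipolysis inhibitor kept in the granulocyte list, was also at least 2-fold higher within both libraries, at 434 and 166 CPM against 140 and 53.4 CPM.

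Of the 70 genes on the lower side, 14 belonged to the list of activated fibroblast and matricellular genes. That list has 26 genes, of which 25 were tested and 0 were higher, with a median log2 difference of -1.52. Since *Cthrc1* belongs to this program and set the comparison group, this direction follows in part from the choice of cells. *Postn* (chromosome 3, 54361109 to 54391037) encodes periostin, a matricellular protein. It was at 176 CPM and 754 CPM in members of libraries 1 and 3, and at 2105 and 5418 CPM in Cthrc1+ fibroblasts, so that library 3 was the higher in both groups. *Fn1* (chromosome 1, 71585520 to 71653200), fibronectin, was at 177 and 386 CPM against 1937 and 2926 CPM. *Ddah1*, which breaks down methylarginines, had the lowest median difference (-3.60), at 2.29 and 25.3 CPM against 90.5 and 627 CPM. *Thbs4* and *Comp*, both of the thrombospondin family, had medians of -3.57 and -2.81, *Ltbp2*, a microfibril protein, -2.74, and the non-coding RNA *H19* -3.36. *Wisp1* and *Tnc*, both matricellular, were at -2.39 and -2.35.

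Collagen genes differed among themselves. Of 21 tested, *Col1a1*, *Col1a2*, *Col5a2*, *Col11a1*, *Col12a1* and *Col16a1* were at least 2-fold lower within both libraries and 0 were higher (median -0.57). *Col1a1* was at 2780 and 4541 CPM in members and at 12054 and 9928 CPM in Cthrc1+ fibroblasts. The other 15 did not pass in either direction. Among them, and chosen after their values were seen, were *Col4a1* at 722 and 1680 CPM against 688 and 1907 CPM, and *Col4a4* at 83.7 and 128 CPM against 37.2 and 46.8 CPM. Among 16 elastic fibre genes, *Fbn1*, fibrillin, was the 1 gene that was 2-fold lower within both libraries, and the list median was -0.78. Secreted *Wnt* modulators *Sfrp1* and *Sfrp2* were the lower members of 7 tested on that axis, and *Fstl1*, *Ltbp2* and *Tgfb3* of 23 tested in the TGF-beta and BMP list. *Runx1*, a transcription factor, was the 1 of 25 tested fibroblast transcription factors past 2-fold, at 30.7 and 55.7 CPM against 124 and 197 CPM.

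**Figure D2:**
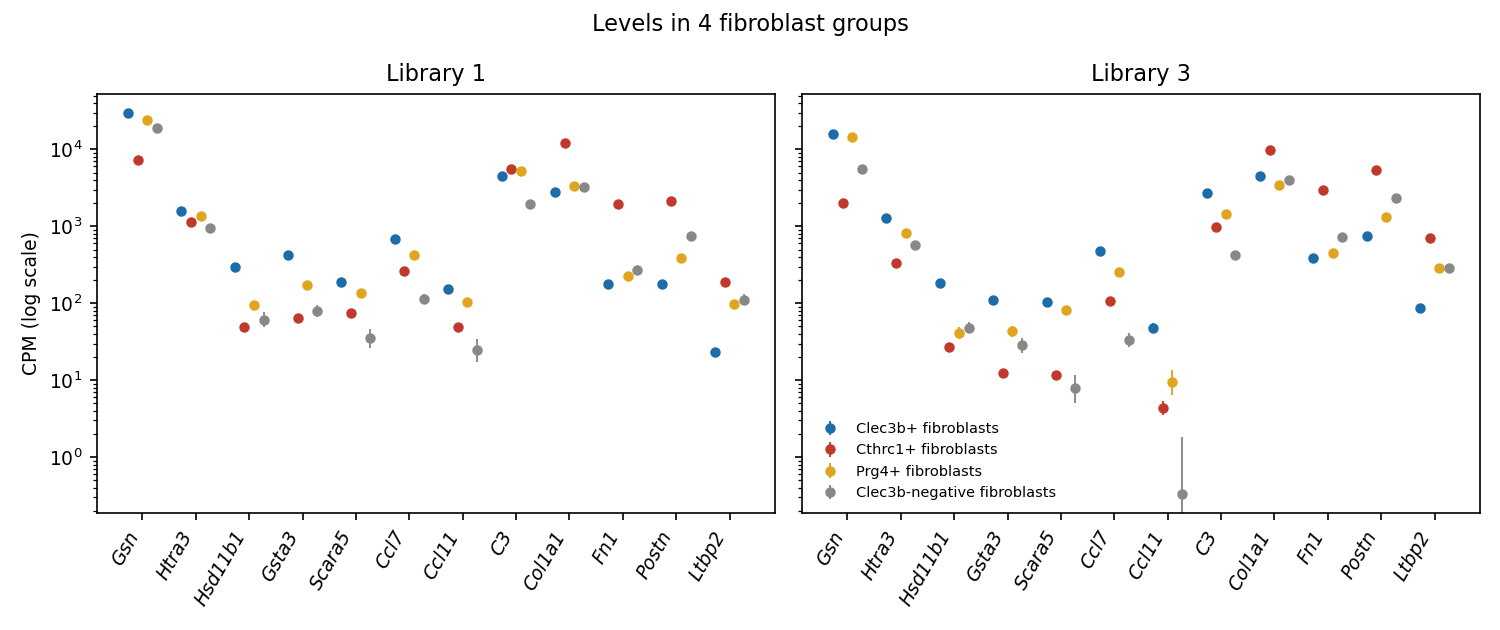
Levels (CPM, log scale) of 12 genes in the 4 fibroblast groups of library 1 (left) and library 3 (right), with exact 95% Poisson intervals as bars, often smaller than the points. *Gsn*, *Hsd11b1*, *Gsta3*, *Scara5*, *Ccl7* and *Ccl11* were highest in Clec3b+ fibroblasts in both libraries, and *Fn1*, *Postn* and *Ltbp2* were lowest there.

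Prg4+ fibroblasts carried *Prg4*, the gene of the lubricating proteoglycan lubricin, and no *Cthrc1*, with or without *Clec3b* (1030 cells, 490 of them in library 2). Against them few genes of the members in libraries 1 and 3 passed. Of 6762 genes tested, 2 were at least 2-fold higher within both libraries (0.0296%) and 24 lower (0.355%). The higher genes were *Hsd11b1*, at 96.3 and 41.3 CPM in Prg4+ fibroblasts, and *Gsta3*, at 174 and 43.5 CPM. Among the lower were *Comp* (medians here and next are log2, -3.32), *Ptgds*, a prostaglandin synthase (-3.23), *Wif1*, a *Wnt* inhibitor (-2.98), and *Fmod*, fibromodulin (-2.08). The looser rule gave 177 higher (2.62%) and 175 lower (2.59%), against 21 and 63 without library 2 and 303 and 283 without library 3.

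Clec3b-negative fibroblasts (145 cells in library 1 and 208 in library 3) were closest to the members by rule. Of 6790 genes tested, 32 were at least 2-fold higher in members within both libraries (0.471%) and 18 lower (0.265%). Complement and chemokine genes were among the higher. *C3*, the central complement component, was at 4573 and 2752 CPM against 1955 and 422 CPM, and *Serping1*, the inhibitor of its first protease, at 2497 and 2035 CPM against 1189 and 913 CPM. These were 2 of 10 complement genes tested (list median 0.72, all genes -0.06). Of 21 chemokine and cytokine genes tested, *Ccl7*, *Ccl11*, *Cxcl1*, *Cxcl5*, *Cxcl14* and *Il6* were higher and 0 lower. *Ccl7* showed the largest median difference, 2.98, at 114 and 33.5 CPM in the Clec3b-negative cells. *Hp*, haptoglobin, was at 79.4 and 123 CPM against 8.06 and 1.99 CPM. Of the resting and adventitial list, *Scara5*, *Gpx3*, *Ly6a* and *Ackr3* were higher of 20 tested. *Postn* (760 and 2303 CPM), *Cilp*, *Ddah1*, *Ltbp2* and *Tnc* were lower of 25 tested in the activated list, although neither group carried *Cthrc1*. By the looser rule 102 were higher (1.5%) and 103 lower (1.52%), against 53 and 56 without library 1 and 165 and 189 without library 3.

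The members themselves differed between libraries 1 and 3. Of 6609 genes tested, 86 were at least 2-fold higher in library 1 (1.3%) and 77 in library 3 (1.17%). Cardiomyocyte markers moved with library 1, where 5 of 8 tested (*Myh6*, *Tnni3*, *Myl2*, *Myl3* and *Mb*) were at least 2-fold higher, and their list of 10 summed to 550 CPM in library 1 and 185 CPM in library 3. The part of such transcripts in the differences between the libraries was not tested. Interferon-response genes were on the library 1 side, where 10 of 24 tested stood at least 2-fold higher and 0 lower, with a median log2 difference of 0.79 against -0.03 for all genes. *Cxcl10*, a T cell chemokine, was at 245 CPM (237 to 253) in library 1, 43.2 CPM (36.8 to 50.5) in library 3, 3.62 CPM (0.439 to 13.1) in library 2 and 1262 CPM (1140 to 1394) in library 4. The 4 libraries thus covered the whole range from near 0 to over 1000 CPM, with the 8 cells of library 4 highest. *Ifit1*, an inhibitor of viral translation, was at 151, 29.6, 0 and 146 CPM in libraries 1, 3, 2 and 4. *Isg15*, a ubiquitin-like protein, was at 149, 31.8, 3.62 and 58.3 CPM. *Irf1*, *Gbp2*, *Gbp5*, *Iigp1*, *Igtp*, *Irgm1* and *Cxcl9* were the other 7. In endothelial cells *Isg15* was also higher in library 1 than in library 3 (484 and 111 CPM), the same direction as in the members. The interferon list summed to 2970 and 1406 CPM in members of libraries 1 and 3 and to 1662 and 1275 CPM in Cthrc1+ fibroblasts. In Prg4+ fibroblasts the sums were 2151 and 1448 CPM, and in Clec3b-negative fibroblasts 2646 and 1618 CPM. Members of libraries 2 and 4 had sums of 284 and 12748 CPM. Cthrc1+, Prg4+ and Clec3b-negative fibroblasts of library 4 had 11080, 16508 and 16211 CPM. In each group library 4 was thus above library 1.

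**Figure D3:**
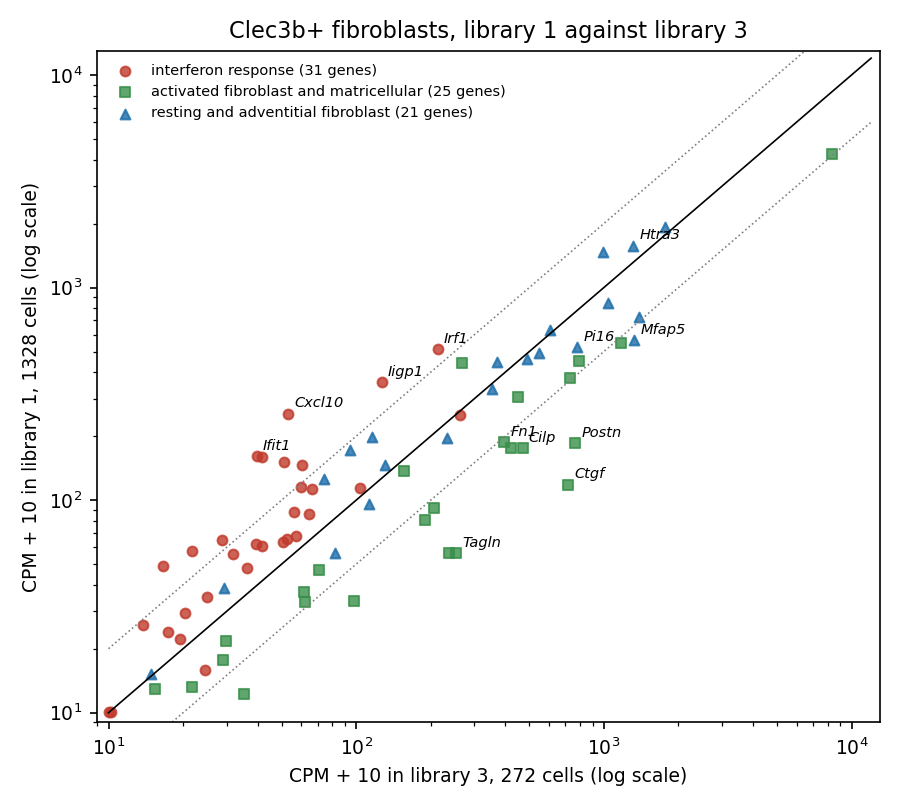
Each point is a gene of 3 lists, placed by its level in members of library 3 (horizontal) and library 1 (vertical), as CPM + 10 on log scales. The solid line marks equal levels and the dotted lines a 2-fold difference. Interferon genes such as *Cxcl10* and *Irf1* lie above the line, matrix genes such as *Postn*, *Ctgf* and *Tagln* below it, and the resting list straddles it (median log2 difference -0.01).

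The promoters of 3 of these genes are shown because the genes stood higher together. Each run is the 250 bases before the transcription start, on the strand of the gene, from RefSeq annotation of GRCm38.p6, and capitals mark matches to GAAANNGAAA, the core of the interferon-stimulated response element, on either strand.

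Cxcl10, chr5:92348890-92349139, minus strand: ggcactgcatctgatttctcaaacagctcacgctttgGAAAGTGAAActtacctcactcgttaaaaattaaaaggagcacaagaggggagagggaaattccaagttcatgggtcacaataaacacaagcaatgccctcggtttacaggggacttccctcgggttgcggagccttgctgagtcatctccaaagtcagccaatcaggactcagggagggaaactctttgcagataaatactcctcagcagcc

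Ifit1, chr19:34640639-34640888, plus strand: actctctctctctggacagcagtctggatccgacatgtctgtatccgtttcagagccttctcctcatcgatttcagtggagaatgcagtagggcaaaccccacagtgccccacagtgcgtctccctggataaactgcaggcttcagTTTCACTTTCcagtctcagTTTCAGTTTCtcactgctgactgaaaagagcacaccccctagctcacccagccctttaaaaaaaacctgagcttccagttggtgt

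Isg15, chr4:156200819-156201068, minus strand: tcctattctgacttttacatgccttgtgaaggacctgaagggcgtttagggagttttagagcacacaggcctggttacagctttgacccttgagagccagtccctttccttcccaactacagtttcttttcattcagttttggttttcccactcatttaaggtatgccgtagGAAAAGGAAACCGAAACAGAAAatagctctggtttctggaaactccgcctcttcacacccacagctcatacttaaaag

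*Cxcl10* held 1 match, *Ifit1* 2 and *Isg15* 3 that overlap each other. The letters occurred in 978 of 32851 promoters of the same length (2.98%). By gene, they occurred in 936 of 27025 genes with a promoter in the table (3.46%) and in 14 of 25 interferon-list genes with a promoter in the table (56.0%). Of the 9 such genes that stood at least 2-fold higher in library 1, 7 held a match, and of the other 16 of the list, 7 did. A match describes the letters and is not evidence of binding.

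Part of the matrix genes stood higher in library 3. Of 21 activated-list genes tested between the libraries, 12 were at least 2-fold higher in library 3 and 0 in library 1 (median -1.10). The other fibroblasts ran the same way. In Cthrc1+ fibroblasts the list summed to 25498 and 38439 CPM in libraries 1 and 3. In Prg4+ fibroblasts the sums were 10404 and 19261 CPM, in Clec3b-negative fibroblasts 9940 and 19789 CPM, and in members 7610 and 15743 CPM. The list includes *Cthrc1*, which chose the Cthrc1+ cells and was 0 by rule in the other groups. The sums of Cthrc1+ fibroblasts thus rest in part on that choice. *Ctgf*, a matricellular growth factor modulator, was at 108 CPM in library 1 and 708 CPM in library 3, and at 888 and 414 CPM in libraries 2 and 4. *Tagln* and *Acta2*, contractile genes, were at 46.5 and 46.6 CPM in library 1 and 243 and 227 CPM in library 3. Of 19 collagens tested 5 were higher in library 3, among them *Col4a1* and *Col8a1*, and of 16 elastic fibre genes 5, among them *Eln* (216 and 728 CPM). Pericyte and smooth muscle genes moved in the same direction, with a summed level of 282 CPM in library 1 and 763 CPM in library 3. That list shares *Tagln* and *Acta2* with the activated list, and the part of such cells in the result was not tested.

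Of 14 glucocorticoid and stress genes tested, 3 were at least 2-fold higher in library 1 and 2 in library 3, with a median of 0.57. Glucocorticoid-responsive *Tsc22d3*, *Fkbp5* and *Zbtb16* were the 3 higher in library 1, at 424, 116 and 129 CPM against 153, 35.9 and 27.5 CPM. The heat shock genes *Hspa1a* and *Hspa1b*, near-identical copies between which reads can be split, were higher in library 3, at 462 and 455 CPM against 199.9 and 116 CPM. Immediate early genes such as *Fos* were abundant in both (4393 and 2363 CPM). *Klf4* was at 1095 and 1012 CPM. Of 19 tested, 0 reached 2-fold, with a median of 0.56.

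The 10 genes with the largest fold between libraries 1 and 3, among those at 50 CPM or more in either, were 4 globin genes, *Dbp*, *Spon2*, *Cst6*, *Ctgf*, *Arntl* and *Inmt*. *Hbb-bs*, a globin gene of red cells, was at 1500 CPM in members of library 1 and 26.9 CPM in library 3, and all 4 globin genes tested were higher in library 1. Other cells of these libraries did not all follow. *Hbb-bs* was at 9241 and 3489 CPM in endothelial cells and 1628 and 156 CPM in Cthrc1+ fibroblasts, but at 197 and 135 CPM in Prg4+ and 126 and 828 CPM in Clec3b-negative fibroblasts. The part of free red cell RNA in the result was not tested. *Dbp*, a clock output factor, was at 449 CPM (438 to 459) in library 1 and at 32.9 (27.3 to 39.3), 14.5 (6.26 to 28.5) and 19.4 CPM (7.13 to 42.3) in libraries 3, 2 and 4. *Arntl*, the activating core of the clock, was at 2.92 CPM in library 1 and 62.5 CPM in library 3. So library 1 stood apart from the 3 others for *Dbp*, and library 3 for *Arntl*. In endothelial cells *Dbp* was at 313 and 30.3 CPM and *Arntl* at 2.65 and 28.8 CPM in libraries 1 and 3, the same direction as in the members.

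The 22 members of library 2 and the 8 of library 4 stood apart from the others in genes that the rule did not use, but not in all genes of the resting list. *Htra3* was at 81.5 and 19.4 CPM in them, as given above, and *Tcf21* at 114 and 12.9 CPM, against 281 and 236 CPM in libraries 1 and 3. Of the gate genes, and as a description only, *Clec3b* had a median of 1.5 and 1 UMIs per cell there. The resting and adventitial list, which includes *Clec3b*, summed to 11694, 5000, 12130 and 12796 CPM in libraries 1 to 4, and *Ly6a* (7608 CPM) and *Ly6c1* (1424 CPM) made up most of it in library 4. The activated list summed to 7610, 8300, 15743 and 22230 CPM, so that library 2 was near library 1 and library 4 was highest. Collagens summed to 16292, 4728, 29644 and 23825 CPM, lowest in library 2. Several chemokine and matrix genes were high. *Cxcl5*, a neutrophil chemokine, was at 7840 and 1214 CPM in libraries 2 and 4, against 148 and 175 CPM. *Ccl2*, a monocyte chemokine, was at 3056 and 8715 CPM, against 473 and 346 CPM. *Timp1*, a protease inhibitor, was at 2666 and 8783 CPM, against 165 and 413 CPM, and *Tnc*, tenascin, at 225 and 311 CPM, against 2.86 and 5.44 CPM.

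The members of libraries 2 and 4 also differed from each other. Those of library 2 had the most *Mt1*, a metallothionein (17513 CPM, against 5181 CPM in library 4), and the least *Col1a1* (134 CPM, against 4424 CPM). Those of library 4 had the most *Saa3*, an acute phase protein (7055 CPM, against 14.5 CPM in library 2), *Ly6a* (7608 and 1018 CPM), the MHC class I gene *H2-K1* (4731 and 167 CPM) and *Cxcl9* (2877 and 1.81 CPM). MHC class II genes summed to 2638 CPM in library 4 and to 7.25, 94.4 and 108 CPM in libraries 2, 3 and 1. Macrophage genes summed to 379 CPM in library 4, led by *Lyz2*, and *Ptprc* was 0 by rule. With 8 cells, 1 cell can set these values. The other fibroblasts of these libraries had like sums. Chemokine and cytokine genes in library 2 summed to 24169 CPM in members and to 24064, 18699 and 29366 CPM in Cthrc1+, Prg4+ and Clec3b-negative fibroblasts. MHC class II genes in library 4 summed to 1680, 3822 and 3363 CPM in these groups, and collagens in library 2 to 3038, 5248 and 4053 CPM. These traits were thus not limited to the members.

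**Figure D4:**
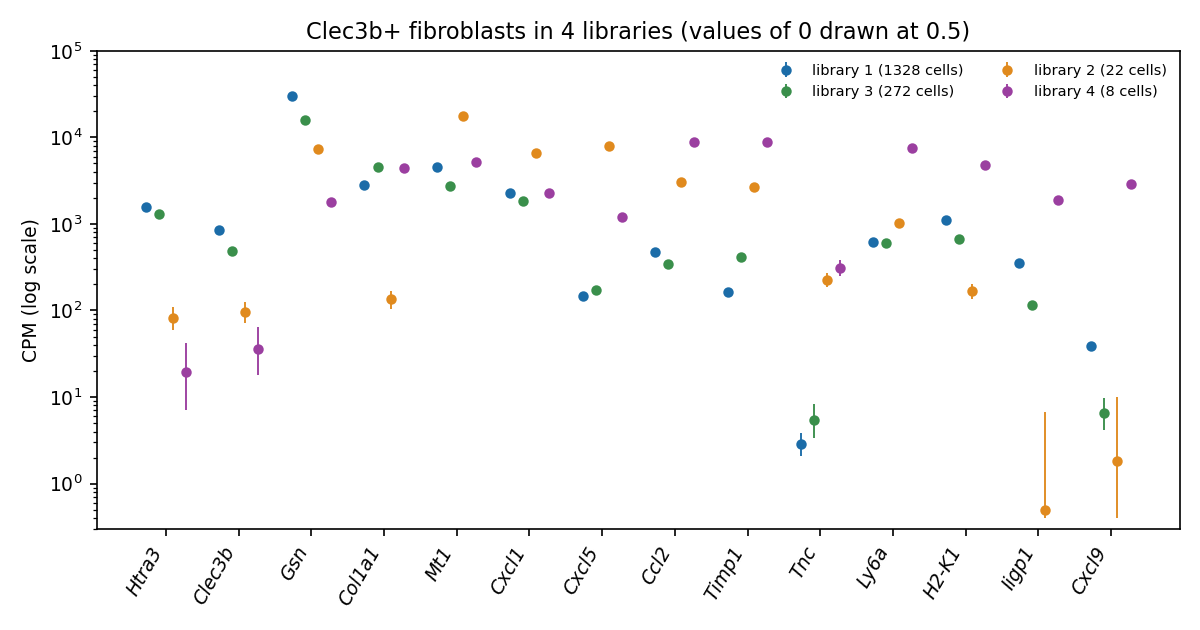
Levels (CPM, log scale) of 14 genes in members of the 4 libraries, with exact 95% Poisson intervals. *Htra3*, *Clec3b* and *Gsn* are highest in libraries 1 and 3, and *Cxcl5*, *Ccl2*, *Timp1* and *Tnc* in libraries 2 and 4. *Ly6a*, *H2-K1*, *Iigp1* and *Cxcl9* are highest in library 4.

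Clustering the 1630 members without the 6 gate genes gave 8 clusters, described by their leading genes with no test, since the same cells and genes formed them. Library 1 supplied 1328 of the members clustered. Cluster 1 (617 cells, 591 from library 1) was led by *Cxcl10*, *Ifit1* and *Gsta3*. It had *Cxcl1* at 3452 CPM, *Fos* at 5940 CPM and *Mt1* at 6034 CPM. Cluster 3 (285 cells, 270 from library 1), led by *Per3*, *Txnip* and *Inmt*, had these at 269, 767 and 1217 CPM, the lowest *Cxcl1* of all clusters. *Gsn* was at 34787 CPM and 43494 CPM and *Htra3* at 1661 CPM and 2041 CPM in these clusters.

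Cluster 2 (293 cells, 177 from library 3) was led by *Cilp*, *Cst6* and *Postn*. *Postn* was at 914 CPM there and at 38.2 CPM in cluster 1. Cluster 5 (132 cells, 101 from library 1) was led by *Sfrp2*, *Col6a5* and *Cpz*. It held 7.61% of the members of library 1 and 11.4% of those of library 3. It had the most *Col3a1* (21140 CPM), *Col1a1* (10479 CPM), *C3* (13206 CPM) and *Cxcl12* (1574 CPM), and the least *Gsn* after cluster 7 (6059 CPM), although it carried no *Cthrc1* UMI by rule. Cluster 4 (159 cells) was led by *Ptgds*, *Cyp2e1* and globin genes, with *Apoe* at 17917 CPM. Cluster 7 held 30 cells, 29 of them from libraries 2 and 4.

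Clusters 6 (91 cells) and 8 (23 cells) carried genes of other cells. Cluster 6 was led by the endothelial genes *Fabp4*, *Gpihbp1* and *Cdh5*, with *Cdh5* at 521 CPM against 12.6 to 21.3 CPM in the other clusters. Cluster 8 was led by the cardiomyocyte genes *Myl2*, *Myl3* and *Mb*, with *Myl2* at 4314 CPM. Of their cells 86.8% and 78.3% were among the 5% of each library with the highest simulated doublet score, and both also held *Htra3* at 946 and 1415 CPM. Without all 105 marked members (6.44%), 52 genes were higher and 78 lower than in Cthrc1+ fibroblasts within both libraries, and *Gsn* and *Htra3* in library 1 stood at 31322 and 1623 CPM.

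**Figure D5:**
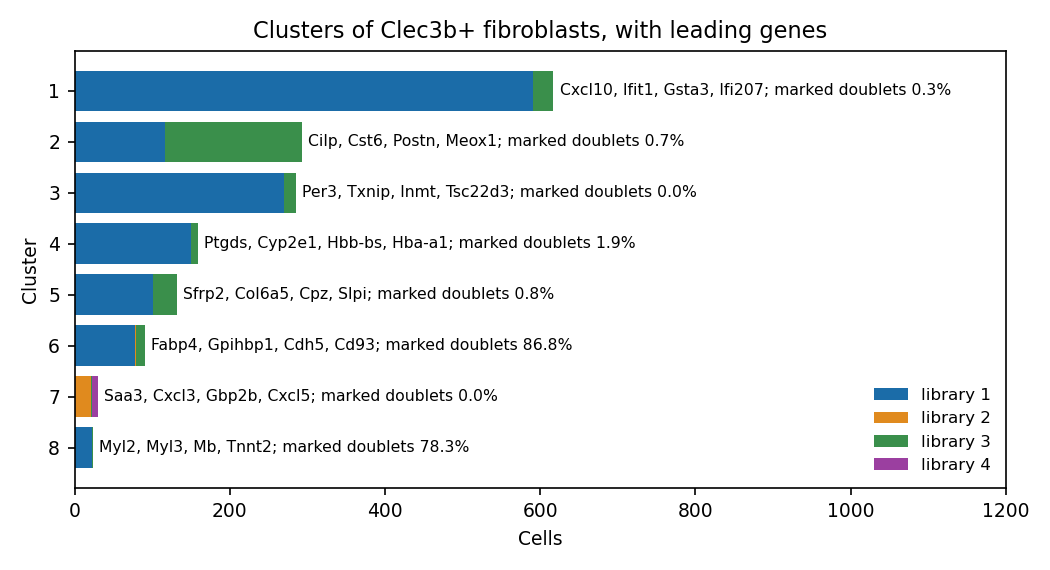
Number of cells (horizontal axis) of each cluster of Clec3b+ fibroblasts, coloured by library, with 4 leading genes and the share of cells marked as doublets. Clusters 1, 3 and 4 are mainly of library 1, cluster 2 mainly of library 3 and cluster 7 of libraries 2 and 4, and clusters 6 and 8 hold most of the marked cells.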

How the data were processed

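Hearts of 4 grafts were digested and profiled with 10x Chromium 3′ v3 chemistry, which counts UMIs at transcript 3′ ends, so counts were not scaled by transcript length. The authors aligned reads to mm10 with Cell Ranger 3.0.0. They deposited UMI counts of 53824 barcodes as 1 matrix of whole numbers (516154088 UMIs), without the study's gene and mitochondrial filters applied. The submitters' notes also name CASAVA 1.8 and Seurat. Strand handling in counting was not given in the sources used here.

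From these counts the gates were applied with the study's cell filter, UMIs were summed per gate and library, and CPM was taken over non-mitochondrial UMIs. Genes with 20 CPM or more in either group were compared, gate genes left out, in libraries with at least 30 cells on each side. The matrix marks 4 libraries, but no label maps them to grafts, and it was therefore treated as 1 sample with no test and no p-value. Libraries 1 and 3 alone held 30 members or more. Members were clustered (Leiden, leidenalg 0.10.2, resolution 0.5, 10 principal components, 2000 variable genes, 30 neighbours). Doublets were marked from simulated pairs (highest 5% per library) and kept. Comparisons between groups were checked on simulated counts. Endothelial cells carried at least 2 UMIs each of *Cdh5* and *Pecam1*, macrophages at least 2 of *C1qa* and 1 of *Ptprc*, and both fewer than 10 of *Dcn*.

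Named genes were the members of fixed lists, the 12 highest and 12 lowest by median within-library ratio to Cthrc1+ fibroblasts (50 CPM or more), the 10 with the largest fold between libraries 1 and 3 and the leading genes of clusters. Other genes named against Prg4+ or Clec3b-negative fibroblasts were chosen after their values were seen. The members, lists and comparisons were chosen with earlier results of these data known. The rule that asks for 2-fold within both libraries was added after seeing the data. Coordinates are from GENCODE annotation of GRCm38 (mm10).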

Additional observations from a re-analysis of the deposited data

How the results depend on the processing

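Values of 1 gene within 1 library do not depend on how libraries are pooled, but the counts of genes do. The share of members was 3.86% with at least 500 genes per cell and 4.29% with mitochondrial transcripts under 10%. Leaving out each library in turn moved it between 0.880% (without library 1) and 5.11% (without library 2). In the same way the genes higher and lower by the looser rule ranged from 99 to 195 and 125 to 182 against Cthrc1+ fibroblasts (fewest higher without library 3), from 21 to 303 and 63 to 283 against Prg4+ fibroblasts (lowest without library 2, highest without library 3), and from 53 to 165 and 56 to 189 against Clec3b-negative fibroblasts (lowest without library 1, highest without library 3). The pooled log2 difference of *Ccl7* from Cthrc1+ fibroblasts was 0.03 without library 3 and 2.03 without library 4.

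Weighting libraries equally gave 76 higher against Cthrc1+, 9 higher and 49 lower against Prg4+, and 49 higher and 51 lower against Clec3b-negative fibroblasts. The mean of per-cell CPM gave 97 higher, 1 CPM added gave 285 higher, and at least 3 UMIs of *Prg4* gave 298 higher against Prg4+ fibroblasts. Against Clec3b-negative fibroblasts 1 CPM added gave 159 higher and 169 lower. The rule of 2-fold within libraries 1 and 3 (chosen with the data in view) gave 41 and 70, 2 and 24, and 32 and 18 genes higher and lower against the 3 groups, and without marked doublets 52 and 78, 2 and 24, and 34 and 22. The causes of these shifts were not tested. Of 100 gene counts under alternatives 68 stayed within 1.5 times the main count. Log2 ratios were re-run only for the named genes highest and lowest against Cthrc1+ fibroblasts, and no ratio of these genes changed sign. They were picked from the same data for their large ratios, so a change of sign was unlikely from the start. The signs of the other called genes were not checked. Of 200 levels of single genes 53 moved by more than their counting error. The 200 include runs without another library, in which a level within library 1 or 3 cannot change. The 53 of 200 thus understates how often levels moved where they could. Of 336 log2 ratios of the re-run genes 61 moved by 0.5 or more. Clusters numbered 6 to 10 under other resolutions, thinning or removal of doublets.

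No paired analysis was possible because no label maps the libraries to grafts, so allogeneic and syngeneic grafts were not compared. Groups of cells were compared within libraries. The precision of libraries 2 and 4 is set by 22 and 8 members, and of the others by the number of grafts, which no interval here covers.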

Other observations

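Part of the clock genes differed between libraries 1 and 3. After *Dbp* and *Arntl* had been seen, 16 clock and clock output genes were read in the same cells, a choice made with the data in view. In the members 7 were at least 2-fold higher in library 1 (*Dbp*, *Tef*, *Hlf*, *Nr1d1*, *Nr1d2*, *Per2* and *Per3*) and 3 in library 3 (*Arntl*, *Npas2* and *Nfil3*), and the other 6 did not reach 2-fold. *Dbp* and *Arntl* prompted the list and are no support for it. *Per3* was at 96.8 CPM in library 1 and at 11.97, 3.62 and 0 CPM in libraries 3, 2 and 4. *Nr1d1*, a repressor that *Arntl* drives, was at 146 CPM in library 1 and 33.7, 21.7 and 19.4 CPM in the others. *Tef* was at 121 CPM in library 1 and 25.3, 21.7 and 3.24 CPM in the others. Library 1 was the highest for each of these. Over all genes tested in members, 1.3% were at least 2-fold higher in library 1 and 1.17% in library 3. The shares over all genes cover those at 20 CPM or more in library 1 or 3, while the 16 clock genes were counted at any level. In members *Npas2* (1.40 and 16.9 CPM in libraries 1 and 3), *Cry1* and *Ciart* were under 20 CPM in both. The counts of clock genes were 7 and 1 in Cthrc1+ fibroblasts (all genes 2.08% and 1.48%), 8 and 2 in Prg4+ fibroblasts (1.39% and 1.21%), 8 and 2 in Clec3b-negative fibroblasts (2.6% and 2.34%) and 8 and 1 in endothelial cells (1.11% and 0.971%). The hour of collection is not given in the sources used here.

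*Lcn2*, which binds bacterial iron carriers, led the granulocyte list in members of libraries 2 and 4. It was at 609 and 1149 CPM in members of libraries 2 and 4 and at 26.2 and 18.8 CPM in libraries 1 and 3. In Cthrc1+, Prg4+ and Clec3b-negative fibroblasts *Lcn2* was at 1326, 672 and 1028 CPM in library 2 and 304, 730 and 194 CPM in library 4. Granulocyte genes summed to 2867 CPM in endothelial cells of library 2 and to 27867 CPM in all its kept cells outside the gate. The part of such transcripts in the members was not tested. *Hp* was at 3395 CPM in library 4 and at 5.43 CPM in library 2.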
